A study of Mus musculus with 15 samples.

Results

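The Hox cluster genes are described here as they appear in cerebellar granule neuron precursors and in medulloblastoma of the mouse. The set is a fixed list of 38 genes from the 4 Hox clusters, chosen by name, with earlier results of these data known, and 37 of them were matched by Ensembl identifier among the 21889 genes of the gene count table. Hoxd4 was not matched there and is described only from the other 2 count tables. RNA-seq of poly(A) RNA was made from cerebellar cells purified on Percoll, a density gradient, in 15 libraries. Granule neuron precursors, the dividing cells that form the granule neurons of the cerebellum, gave 3 libraries each at the embryonic stage E15.5 (genotype Math1-GFP) and, from wild-type pups, at the postnatal days P1, P7 and P14. A further 3 libraries came from medulloblastoma (MB), a cerebellar tumour, of Ptch1 heterozygous mice, with no age given. The design text gives the finding of genes that increase as the precursors differentiate as the purpose of the 4 ages, and states none for the tumour RNA. Genotype and age cannot be told apart between E15.5 and P1, because every E15.5 library carries Math1-GFP and no later library does. The labels do not say whether the E15.5 cells were also sorted by GFP. The labels do not say whether replicates came from separate animals, so the p-values measure the spread between these samples, which may be technical.

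Hox genes encode homeodomain transcription factors that give cells their position along the head-to-tail axis. They lie in 4 clusters, A to D, and genes at matching positions in different clusters form a paralog group. Genes of low paralog number are expressed in the hindbrain and those of high number progressively further towards the tail. The cerebellum arises from the most anterior hindbrain segment, which lies in front of the Hox domain, while the neighbouring hindbrain and its rhombic lip, a source of other neurons, express anterior Hox genes such as Hoxa2, the gene with the most anterior limit.

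The sequence next to the start site is shown for 3 anterior genes that the results turn on, Hoxa2, Hoxa3 and Hoxd3, and for 1 posterior gene with no count in any library of either the gene or the transcript table, Hoxd10. Each line gives the 250 bases upstream of the start, 5′ to 3′ along the gene, from RefSeq on GRCm38.p6, with each CG pair in capitals. The windows are chr6:52164832-52165081, minus strand (Hoxa2), chr6:52213068-52213317, minus strand (Hoxa3), chr2:74711743-74711992, plus strand (Hoxd3) and chr2:74691641-74691890, plus strand (Hoxd10).
Hoxa2: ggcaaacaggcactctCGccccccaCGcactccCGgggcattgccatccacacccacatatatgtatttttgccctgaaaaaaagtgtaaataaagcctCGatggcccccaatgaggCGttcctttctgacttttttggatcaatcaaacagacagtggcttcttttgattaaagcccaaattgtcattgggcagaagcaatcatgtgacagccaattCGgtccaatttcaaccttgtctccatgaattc
Hoxa3: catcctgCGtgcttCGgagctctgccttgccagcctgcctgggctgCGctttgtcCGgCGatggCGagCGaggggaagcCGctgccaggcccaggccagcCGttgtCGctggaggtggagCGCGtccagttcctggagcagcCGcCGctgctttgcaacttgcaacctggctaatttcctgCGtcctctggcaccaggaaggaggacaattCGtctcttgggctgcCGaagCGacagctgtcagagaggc
Hoxd3: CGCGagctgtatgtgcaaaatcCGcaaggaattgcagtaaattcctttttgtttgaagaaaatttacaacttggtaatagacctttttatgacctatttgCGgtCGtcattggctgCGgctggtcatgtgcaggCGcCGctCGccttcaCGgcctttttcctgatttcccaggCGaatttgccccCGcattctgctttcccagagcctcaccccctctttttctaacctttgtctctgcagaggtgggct
Hoxd10: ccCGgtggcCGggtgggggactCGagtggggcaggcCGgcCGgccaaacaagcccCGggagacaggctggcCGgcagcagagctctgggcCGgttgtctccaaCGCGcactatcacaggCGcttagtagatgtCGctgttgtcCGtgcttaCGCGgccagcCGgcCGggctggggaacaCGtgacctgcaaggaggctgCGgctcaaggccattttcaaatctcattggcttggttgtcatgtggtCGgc
These windows held 6 CG pairs at Hoxa2, 18 at Hoxa3, 12 at Hoxd3 and 20 at Hoxd10, against a median of 6 over 32851 upstream windows of the same length from all genes. At least 10 pairs were found in 15 of the 24 windows that matched a listed gene (62.5%) and in 37.8% of all windows. Of the 24, 8 windows belonged to genes with no count in any library of the gene table, and their median was 16.5 pairs. The motif TGATNNAT, the core of a joint PBX and HOX site, was searched on both strands and found in the Hoxa2 window, in 16.7% of the 24 Hox windows and in 7.68% of all windows. The MEIS-type motif TGACAG, which shares its first letters with the other motif, was found in the Hoxa2 and Hoxa3 windows, in 8.33% of the 24 and in 15.9% of all windows. Of the 5 genes tested below, Hoxb2 and Hoxb3 had no entry in the sequence table.

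Hox RNA was scarce in every library and came mostly from the anterior genes. Read counts in genes ran from 12597472 (E15.5 replicate 2) to 43443132 (E15.5 replicate 3) per library, and levels are given as CPM, the counts relative to library size after scaling by the TMM method. The 37 matched genes together held 1166 counts over the 15 libraries. Paralog groups 1 to 4 held 1061 of these (90.99%), over 10 genes. Groups 5 to 8 held 87 (7.46%, 11 genes) and groups 9 to 13 held 18 (1.54%, 16 genes). In the gene table, no count in any library was found for 11 genes, Hoxa6, Hoxa10, Hoxa11, Hoxb6, Hoxb8, Hoxb9, Hoxc6, Hoxc11, Hoxc12, Hoxd10 and Hoxd11, all of paralog group 6 or higher. The transcript table held 6 counts of Hoxb6 in 4 libraries and 1 each of Hoxb8 and Hoxb9, and the other 8 genes had no count there either. For a gene with no count, the 3 counts that a zero allows correspond to 0.0411 CPM over the E15.5 group and 0.0329 CPM over MB. Over P1, P7 and P14 they correspond to 0.0397, 0.0311 and 0.0323 CPM. A further 15 genes had 1 to 9 counts in all, and 11 had from 18 to 265. Reads amplified by PCR are not independent molecules, so these limits, and the intervals below, cover counting error only.

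**Figure D1:**
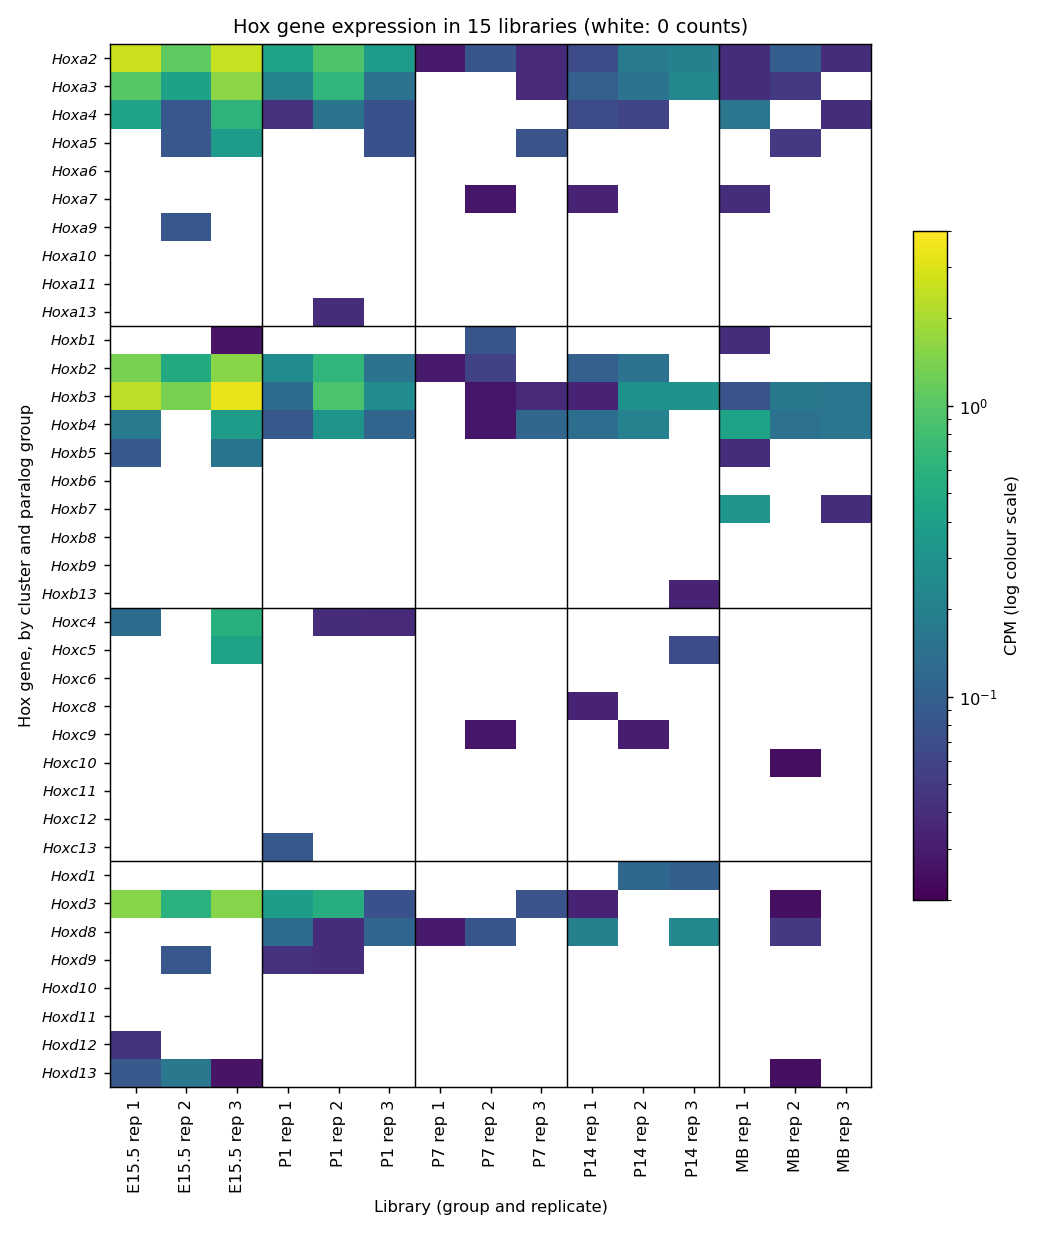
Level of each of the 37 Hox genes (vertical axis, by cluster and paralog group) in each of the 15 libraries (horizontal axis), as CPM on a logarithmic colour scale, with white for 0 counts. Signal is concentrated in the E15.5 and P1 columns of paralog groups 2 to 4, and the posterior genes are white or hold 1 or 2 counts in a library.

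Per kilobase of exon, the scale on which genes can be compared, the E15.5 order ran from Hoxb3 (0.885 CPM per kb) and Hoxa2 (0.869) to Hoxb2 (0.343), Hoxa3 (0.319) and Hoxd3 (0.313), with Hoxa4 next at 0.240. The SDs over the 3 libraries were 0.365 for Hoxa2 and 0.174 for Hoxa4, so neighbours in this order lay within the spread. In clusters A and B, the mean per-kb levels at E15.5 were lower in paralog group 4 than in group 3 and lower again in group 5, at 0.0801 for Hoxa5 and 0.0290 for Hoxb5, with SDs about as large as these last values. Of cluster C, whose listed genes begin at paralog group 4, only Hoxc4 (0.0924) and Hoxc5 (0.0479) had counts at E15.5. The clusters lie, in the mm9 build of the files, at chr6:52112350-52210874 (A), chr11:96055630-96229570 (B), chr15:102751534-102867274 (C) and chr2:74506367-74603200 (D), measured over the listed genes.

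**Figure D2:**
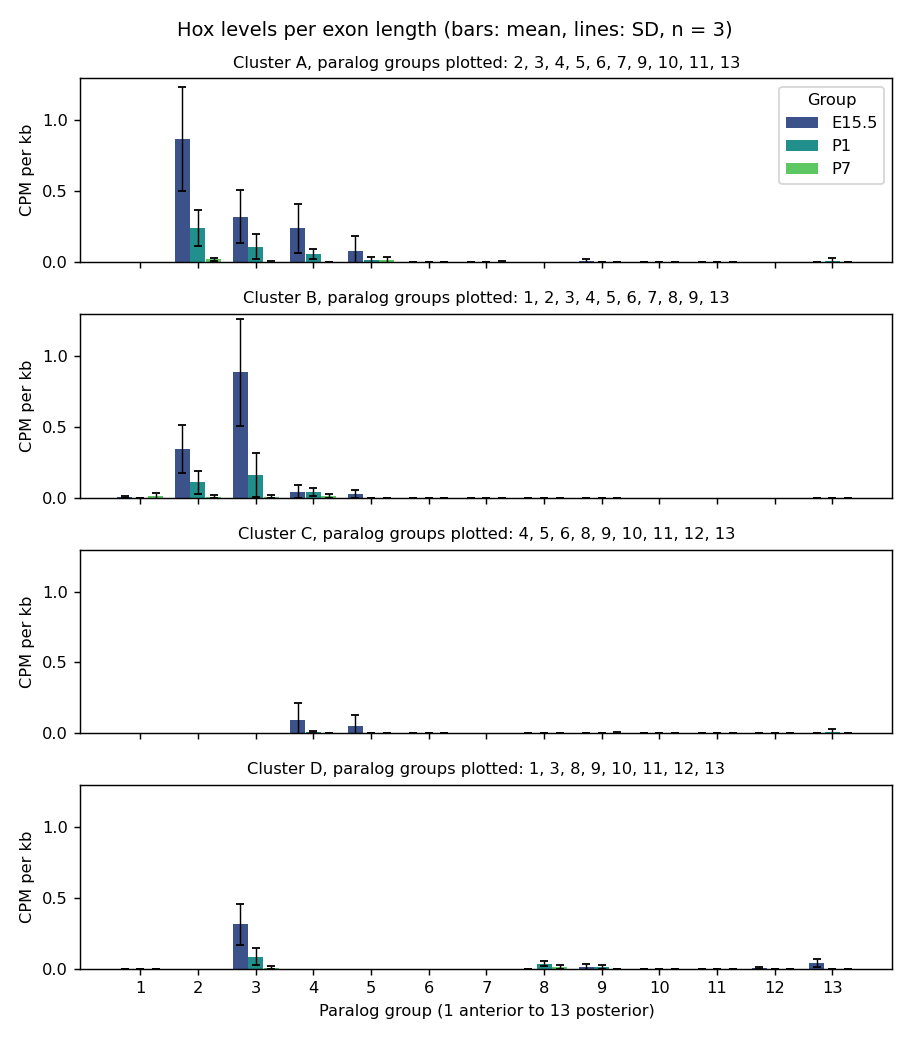
Mean CPM per kilobase of exon (vertical axis) against paralog group (horizontal axis) in each cluster at E15.5, P1 and P7, with lines for the SD over 3 libraries. The highest bars are Hoxa2 and Hoxb3 at E15.5, and bars beyond paralog group 5 are near 0.

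Summed over the 37 genes, the E15.5 libraries held 9.90, 4.43 and 13.2 CPM (replicates 1, 2 and 3), and the P1 libraries held 1.80, 4.30 and 1.43 CPM. The P7 libraries held 0.0877, 0.414 and 0.385 CPM, from 3, 15 and 10 counts, and were the lowest. The P14 libraries held 0.809, 1.21 and 1.17 CPM and the MB libraries 1.19, 0.635 and 0.440 CPM. The lowest E15.5 library was close to the highest P1 library. The P14 libraries lay above the P7 libraries, while MB replicate 3 (95% counting interval 0.22 to 0.788) and P7 replicate 2 (0.232 to 0.683) were the same within counting error. In bulk RNA, fewer cells of a type and less RNA per cell cannot be told apart.

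Only 5 genes had enough counts for the test across genes, Hoxa2, Hoxb2, Hoxa3, Hoxb3 and Hoxd3, and the other 32 matched genes were not tested. All 5 belong to paralog group 2 or 3, and each passed the filter on low counts through the E15.5 libraries, where it was high, so a count of differences over these 5 supports nothing about the set. Each differed among the 5 groups, with edgeR adjusted p-values from 2.83e-06 (Hoxa2) to 0.000156 (Hoxb2), where 70.2% of all 15259 genes tested did so. With no filter on low counts 8 of 26 did, where 57.7% of all genes did. The same 5 had a mean of at least 1 CPM at E15.5, and no Hox gene did in any other group.

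Hoxa2, which sets identity in the anterior hindbrain, measured 2.66, 1.09 and 2.57 CPM at E15.5 and 0.429, 0.930 and 0.377 CPM at P1. It then measured 0.0292, 0.0828 and 0.0385 CPM at P7, 0.0674, 0.181 and 0.201 CPM at P14, and 0.0397, 0.0977 and 0.0400 CPM in MB. Every E15.5 library lay above every P1 library, and every P1 library above all P7, P14 and MB libraries.

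Hoxb3, a regulator of caudal hindbrain identity, measured 2.36, 1.34 and 3.34 CPM at E15.5 and 0.129, 0.892 and 0.264 CPM at P1. Its later values were 0, 0.0276 and 0.0385 CPM at P7, 0.0337, 0.301 and 0.301 CPM at P14, and 0.0793, 0.171 and 0.160 CPM in MB. The E15.5 libraries lay above all others, P14 overlapped both P1 and MB, and the MB libraries all lay above the P7 libraries.

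Hoxa3, a paralog of Hoxb3, measured 1.00, 0.418 and 1.60 CPM at E15.5, and 0.215, 0.659 and 0.151 CPM at P1, so P1 replicate 2 exceeded E15.5 replicate 2. At P7 it had 1 count in 1 library. The P14 libraries held 0.101, 0.151 and 0.234 CPM and the MB libraries 0.0397, 0.0489 and 0 CPM, and these groups did not overlap.

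Hoxb2, which acts with its cluster neighbours in hindbrain segments, measured 1.35, 0.501 and 1.55 CPM at E15.5 and 0.257, 0.659 and 0.151 CPM at P1. The P7 libraries held 0.0292, 0.0552 and 0 CPM, the P14 libraries 0.101, 0.151 and 0 CPM, and all 3 MB libraries had 0 counts. The E15.5 and P1 groups overlapped through replicate 2 of each.

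Hoxd3 measured 1.57, 0.585 and 1.52 CPM at E15.5 and 0.386, 0.543 and 0.0754 CPM at P1. Only 2 counts remained at P7, 1 at P14 and 1 in MB. All E15.5 libraries lay above all P1 libraries, and P1 replicate 3 was just below the highest P7 library.

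**Figure D3:**
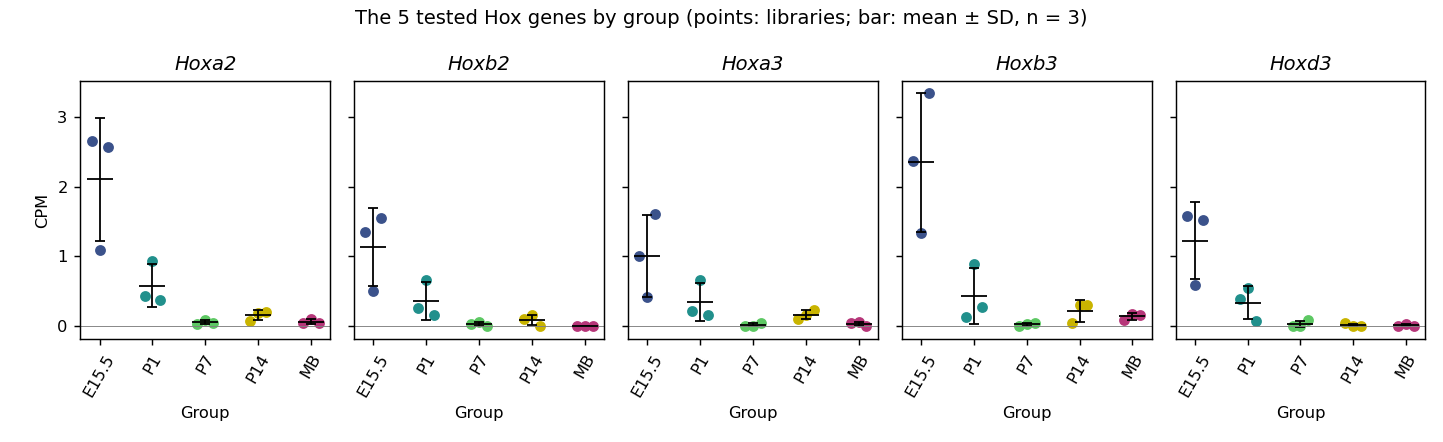
CPM (vertical axis, linear and shared) of the 5 tested Hox genes in each library by group (horizontal axis), with the mean and SD of 3 libraries. In each panel the E15.5 points are the highest or overlap only P1, and the P7, P14 and MB points lie near 0.

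Between E15.5 and P1, 4 of the 5 tested genes fell, against 20.9% of all genes tested that were lower, 25.4% that were higher and 46.3% that differed in either direction. The log2 changes, with their standard errors and edgeR adjusted p-values, were -1.88 ± 0.48 (adjusted p = 0.00514) for Hoxa2 and -2.46 ± 0.65 (adjusted p = 0.00654) for Hoxb3. Hoxd3 changed by -1.91 ± 0.67 (adjusted p = 0.0302) and Hoxa3 by -1.61 ± 0.62 (adjusted p = 0.0454). Hoxb2 did not pass the test, with a log2 change of -1.71 ± 0.68 and an edgeR adjusted p of 0.0545. The median over the 5 was -1.88, and over all genes tested 0.0307. These 5 passed the filter through their high E15.5 counts, so neither this median nor the count of 4 supports anything about the set. As pooled ratios, E15.5 exceeded P1 by 4.05-fold for Hoxa2 (95% counting interval 2.89 to 5.78) and 6.19-fold for Hoxb3 (4.26 to 9.24). Leaving out any 1 library of either group kept the calls of Hoxa2 and Hoxb3. The calls of Hoxa3 and Hoxd3 were lost without E15.5 replicate 1 (adjusted p = 0.0763 and 0.0839 with edgeR), E15.5 replicate 3 (0.213 and 0.0863), P1 replicate 1 (0.138 and 0.0604) or P1 replicate 3 (0.163 and 0.113). Hoxb2 passed without E15.5 replicate 2 (edgeR adjusted p = 0.0366) or P1 replicate 2 (0.0290), and without the former Hoxa4 entered the test and was lower too.

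The libraries fell into 2 sets by the ratio of gene table to transcript table counts at the gene Tsnax, with E15.5 replicates 1 and 3, all of P7 and MB replicate 1 on one side and the other 9 libraries on the other. Within those 9, E15.5 replicate 2 is the lone embryonic library, so the E15.5 group shows no spread of its own there. The log2 changes from E15.5 to P1 were then smaller, at -0.90 for Hoxa2 and -1.62 for Hoxb3, against -1.88 and -2.46 with all 15 libraries. Hoxa3 changed by -0.29, Hoxb2 by -0.49 and Hoxd3 by -0.81. The Tsnax ratio was at most 0.27% in the first set and at least 92.39% in the second. At the 5 tested Hox genes the ratio of the 2 tables differed little between the sets. It was 81.3% (6 libraries) and 73.8% (9 libraries) for Hoxa2, 102.8% and 102.6% for Hoxb3, and 100% in both for Hoxb2. Some genes with few counts differed more. All 6 transcript table counts of Hoxb6, which had none in the gene table, lay in the 9 libraries. So did all but 1 of the 33 transcript table counts of Hoxc9, which had 2 in the gene table. No batch is named in the labels.

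From P1 to P7, 3 of the 5 tested genes were lower. Hoxa2 changed by -3.39 ± 0.65 on the log2 scale (edgeR adjusted p = 0.0186), Hoxa3 by -4.54 ± 1.05 (adjusted p = 0.0327) and Hoxb3 by -4.11 ± 1.01 (adjusted p = 0.0410), where 1.74% of genes tested were lower, 1.4% were higher and 3.15% differed. Hoxb2 (-3.36 ± 0.98, edgeR adjusted p = 0.0793) and Hoxd3 (-3.72 ± 1.03, adjusted p = 0.0614) did not pass the test, and DESeq2 called all 5, where it called 7.92% of genes. The P7 libraries all belong to the first of the sets above, and those of P1 and P14 all belong to the second, so age and set cannot be told apart in P7 against P1 or in P14 against P7. The pooled P1 to P7 ratio was 11.2 for Hoxa2 (95% counting interval 4.46 to 36.2) and 21.0 for Hoxb3, where 2 counts at P7 leave an interval of 5.38 to 180.9. From E15.5 to P7 the pooled ratio was 45.4 for Hoxa2 (19.1 to 141.7), 42.3 for Hoxb2 (14 to 208.6) and 130.1 for Hoxb3 (35.5 to 1082.1). No Hox call between P7 and P1 remained without P1 replicate 2, P7 replicate 1, P7 replicate 2 or P7 replicate 3. The edgeR adjusted p-values for Hoxa2 were then 0.119, 0.0713, 0.0576 and 0.0527. Those fits called 9, 106, 21 and 156 of all genes, against 480 with all 15 libraries, so the loss was not particular to Hox genes. Without P1 replicate 3 all 5 were called, where 888 of all genes were, and Hoxa2 had an edgeR adjusted p of 0.00999.

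P1 replicate 2 was the highest P1 library for each of the 5 genes, and it was also the highest in choroid plexus RNA. P1 replicate 3 stood apart in other markers. Its 4 mature granule neuron markers summed to 686.4 CPM, against 134.3 and 165.6 in replicates 1 and 2, and its 4 oligodendrocyte markers to 3153.1 CPM, against 84.4 and 473.1. The 3 listed choroid plexus markers (Ttr, Folr1 and Kcnj13, all detected) summed to 290.8, 10182.2 and 3804.8 CPM in the P1 libraries, and to 25 to 280.8 CPM at E15.5. The choroid plexus markers summed to 9.35, 461.4 and 1937.4 CPM at P7, 5032.9 to 8387.9 CPM at P14 and 11.7 to 162.7 CPM in MB. P7 replicate 3, with 1937.4 CPM of these markers, held 10 Hox counts, against 3 and 15 in replicates 1 and 2. Markers of pericytes and fibroblasts, 4 of 4 detected, summed to 8.68 to 11.8 CPM in the E15.5 libraries and 6.64 to 18.2 CPM in MB. Their sums were 278.6 to 415.1 CPM at P1, 151.2 to 261.7 CPM at P7 and 234.7 to 330.3 CPM at P14. Astroglia markers summed to 77.6 to 153 CPM at E15.5 and 1486.7 to 2854.4 CPM at P1. Endothelium markers summed to 8.94 to 22.7 CPM and 257.5 to 366.4 CPM, and oligodendrocyte markers to 25.7 to 38.2 CPM at E15.5. Every listed marker of these 3 cell types was higher at P1 than at E15.5 by edgeR, where 25.4% of all genes tested were. The part of these cells in the Hox values was not tested. Interneuron markers (Gad1, Gad2, Slc6a5 and Tfap2b) were also highest at E15.5, with sums of 392.8 to 476.5 CPM at E15.5 and 1.40 to 2.94 CPM in MB. Between these lay P1 (146.2 to 219.6 CPM), P7 (182.6 to 201.9 CPM) and P14 (66.9 to 101.6 CPM). Their part was not tested either.

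Markers of brainstem neurons, a class that carries Hox codes, were at low levels at E15.5. The 9 listed markers summed to 4.41, 2.92 and 4.62 CPM at E15.5, 6.65, 6.78 and 3.24 CPM at P1, 0.234 to 0.690 CPM at P7 and 0.512 to 0.573 CPM at P14. In MB they summed to 0.317, 6.91 and 35.2 CPM. Mnx1, a marker of somatic motor neurons, had no count in any group. The part of such cells in the Hox values was not tested.

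The labelled cell type could be checked against 7 listed precursor markers, all of which were detected in each group. Atoh1, the factor that defines granule neuron precursors, measured 123.6 to 138.5 CPM at E15.5 and 235.8 to 321.8 CPM in MB. Its range was 24.5 to 65.4 CPM at P1, 23.6 to 39.1 CPM at P7 and 10.9 to 13.1 CPM at P14. Against P7, 3 of the 7 were higher in MB and 3 lower, where 13.7% of all genes tested were higher and 20.7% lower. Against P14 the counts were the same, where 22.9% of all genes were higher and 27.2% lower. The lower were Pax6, Neurod1 and Mfap4, and Mfap4 measured 16.6 to 38.3 CPM in MB and 680.2 to 766.8 CPM at P7.

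Between P7 and P14 no Hox gene passed the test, where 5.81% of all genes tested were higher at P14, 4.51% were lower and 10.3% differed. By unadjusted edgeR p under 0.05 there were 2, and DESeq2 called 1, Hoxa3 (log2 change 3.87, adjusted p = 0.0482), where it called 16% of genes. With edgeR, Hoxa3 was higher at P14 by 3.48 ± 1.13 (adjusted p = 0.0628) and Hoxb3 by 3.11 ± 1.07 (adjusted p = 0.0752). The P14 libraries held 15 Hoxa3 counts against 1 at P7, a pooled ratio of 15.6 with a 95% counting interval of 2.40 to 656.4, and the groups did not overlap. Hoxb3 had 20 counts against 2, a ratio of 10.4 (2.53 to 91.7), but its groups overlapped. Hoxa2 (14 against 5 counts) and Hoxb2 (8 against 3) had log2 changes of 1.47 and 1.36, with edgeR adjusted p-values of 0.203 and 0.472.

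P14 and P1 share no library, but each also enters a comparison with P7. Against P1, 2 of the 5 genes were lower at P14, where 5.31% of genes tested were lower, 3.63% were higher and 8.94% differed. These were Hoxa2 (log2 change -1.92 ± 0.56, edgeR adjusted p = 0.0466) and Hoxd3 (-4.47 ± 1.14, adjusted p = 0.0283). Both calls were lost when P1 replicate 1, P1 replicate 2 or any single P14 library was left out. In those fits the edgeR adjusted p-values were 0.110 to 0.250 for Hoxa2 and 0.0668 to 0.150 for Hoxd3. The same fits called 154 to 294 of all genes, against 1364 with all 15 libraries. Hoxa3 (-1.06 ± 0.71), Hoxb2 (-2.00 ± 0.85) and Hoxb3 (-1.0 ± 0.73) did not pass, with edgeR adjusted p-values of 0.357, 0.146 and 0.401.

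The tumours held far less RNA of the tested Hox genes than the E15.5 precursors. All 5 were lower in MB than at E15.5, where 24.2% of all genes tested were lower, 26% were higher and 50.1% differed. These 5 passed the filter through their high E15.5 counts, so the count of 5 supports nothing about the set. The log2 changes were -4.97 ± 0.61 for Hoxa2, -4.85 ± 0.83 for Hoxa3, -4.05 ± 0.73 for Hoxb3 and -6.39 ± 1.03 for Hoxd3, with edgeR adjusted p-values of 8.58e-06, 0.000198, 0.000297 and 0.000109. Hoxb2, at 0 counts in MB and 96 at E15.5, was at least 40.0-fold lower, taking 3 counts over the MB group as the floor (exact 95% lower limit 31.9), with an edgeR adjusted p of 0.00015. E15.5 exceeded MB by a pooled 35.8-fold for Hoxa2 (95% counting interval 16.1 to 98.9) and 18.9-fold for Hoxb3 (10.8 to 36.2). Each of the 5 calls held without any single library. Within the 9 libraries named above, E15.5 replicate 2 is the lone embryonic library. The log2 changes there were smaller, at -3.77 for Hoxa2, -3.61 for Hoxa3, -2.96 for Hoxb3 and -4.90 for Hoxd3.

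Against P7, no tested Hox gene passed the test in MB, where 13.7% of all genes tested were higher, 20.7% were lower and 34.5% differed. By unadjusted edgeR p under 0.05 there was 1, Hoxb3, and DESeq2 called 0. Hoxb3 was higher in each MB library than in each P7 library, from 13 counts against 2, with a log2 difference of 2.52 ± 1.13 (edgeR adjusted p = 0.102) and a pooled ratio of 6.88 (95% counting interval 1.56 to 62.8). Hoxa2 had 6 counts in MB and 5 at P7, a ratio of 1.27 with an interval of 0.323 to 5.26, so a difference of several-fold in either direction was not detectable at this depth. Against P14, Hoxb2 was lower in MB, from 8 counts to 0, with an edgeR adjusted p of 0.0472, where 27.2% of genes were lower, 22.9% were higher and 50% differed. That is at least 2.62-fold against the floor of 3 counts, with an exact 95% lower limit of 1.68, and P14 replicate 3 was also at 0. The call was lost without P14 replicate 1 (edgeR adjusted p = 0.0852), P14 replicate 2 (0.141), MB replicate 1 (0.0818), MB replicate 2 (0.111) or MB replicate 3 (0.0787). The 3 comparisons of MB share the MB libraries.

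Among the 32 genes that were not tested, 4 patterns are singled out here after their values were seen. The first is Hoxb4, at 11, 6 and 4 counts in MB replicates 1, 2 and 3, against 0, 1 and 3 at P7 and 4, 0 and 14 at E15.5. All MB libraries were above all P7 libraries, and the pooled MB to P7 ratio was 5.55 (95% counting interval 1.87 to 22.3), while the E15.5 to MB ratio was 1.07 (0.538 to 2.11). With no filter on low counts the edgeR adjusted p for MB against P7 was 0.121. The second is Hoxb7, with 8, 0 and 1 counts in the MB libraries and none in any precursor library of the gene table. Most of its reads thus lie in MB replicate 1, and its edgeR adjusted p against P7 with no filter was 0.128. The transcript table held 1 to 3 Hoxb7 counts in some E15.5, P1 and P14 libraries too. Those of P1 and P14 belong to the 9 libraries of the second set above, and MB replicate 1 belongs to the first. The annotated spans of Hoxb7 and Hoxb8 overlap.

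The third pattern is in the middle of the clusters, where the E15.5 libraries differed. E15.5 replicate 3 held 22 counts of Hoxc4, 16 of Hoxc5, 14 of Hoxa5 and 6 of Hoxb5. Replicates 1 and 2 held 3 and 0 of Hoxc4, 0 of Hoxc5 in both, 0 and 1 of Hoxa5, and 2 and 0 of Hoxb5. Paralog groups 5 to 8 made up 36 of 501 Hox counts in replicate 3 (7.19%, exact binomial 95% interval 5.08 to 9.81), 2 of 227 in replicate 1 (0.881%, 0.107 to 3.15) and 1 of 53 in replicate 2 (1.89%, 0.0478 to 10.1). Replicate 3 was the deepest library, and its interval overlaps that of replicate 2 but not that of replicate 1. With no filter on low counts, Hoxa4, Hoxc4 and Hoxc5 were also lower in MB than at E15.5, with edgeR adjusted p-values of 0.0281, 0.0104 and 0.0483. That made 8 of 26 Hox genes called, where 41% of all genes were called in that fit. Hoxa4 itself, next in order to the tested genes, had 35 counts at E15.5 and 0 at P7, with 7, 4 and 5 in P1, P14 and MB, and was at least 15.4-fold higher at E15.5 than at P7 against the floor of 3 counts (exact 95% lower limit 11.9).

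The fourth is Hoxd8, which ran against the other genes, with no count in the E15.5 libraries and 7 at P1. It had 4 at P7, 13 at P14 and 2 in MB. Its P14 counts were 6, 0 and 7, so replicate 2 held none, and the 3 counts a zero allows at E15.5 correspond to 0.0411 CPM. With no filter the edgeR adjusted p for P1 against E15.5 was 0.0838. The remaining genes with any count were Hoxa7, Hoxa9, Hoxa13, Hoxb1, Hoxb13, Hoxc8, Hoxc9, Hoxc10, Hoxc13, Hoxd1, Hoxd9, Hoxd12 and Hoxd13, with 1 to 7 counts each over all libraries, in at most 4 libraries of the gene table. Hoxc9, with 2 of these counts, had 33 in 9 libraries of the transcript table. Those were 2, 4 and 3 at P1, 10, 2 and 4 at P14, 5 and 2 in MB replicates 2 and 3, and 1 at P7. All but the count at P7 lay in the second of the 2 sets of libraries above, so set and group cannot be told apart for them. Hoxd1 had 7 counts, all at P14, and Hoxd13 had 5 of its 6 at E15.5. Hoxd4 had at most 1 count in a library of the start site table and at most 5 in the transcript table, where its transcripts lie within the span of Hoxd3.

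Hox proteins bind DNA together with the TALE cofactors of the Pbx, Meis and Pknox families, and all 9 listed cofactors were tested. Between E15.5 and P1, 5 were lower, 1 was higher and 3 did not pass, where 20.9% of all genes were lower and 25.4% higher, with a median log2 change of -0.59 against 0.03 over all genes tested. Meis2 measured 95, 143.2 and 55.7 CPM at E15.5 and 3.09, 5.47 and 2.60 CPM at P1, and at most 1.31 CPM in any later precursor library. The groups were far apart, and the change was -4.72 ± 0.59 (edgeR adjusted p = 2.02e-05). Meis2 measured 0.674, 0.0733 and 0 CPM in MB. Pbx3 (-1.50 ± 0.21), Meis3 (-1.45 ± 0.20) and Pknox2 (-1.21 ± 0.17) were also lower at P1, with edgeR adjusted p-values of 5.15e-05, 5.85e-05 and 5.15e-05. In MB against P7, 2 were higher and 2 lower, where 34.5% of all genes differed, and Pbx3 was among the higher (1.26 ± 0.21, edgeR adjusted p = 0.000232).

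Evx1 and Evx2, homeobox genes that flank clusters A and D beyond paralog group 13, had counts at E15.5 alone, apart from 2 Evx2 counts at P14. Evx1 measured 3.97, 2.17 and 2.94 CPM at E15.5, from 229 counts, and Evx2 measured 3.62, 6.18 and 1.81 CPM, from 226 counts. Both had no count at P1, P7 or in MB, so E15.5 was at least 79.1-fold higher than P1 for Evx1 and at least 78.1-fold for Evx2 against the floor of 3 counts (exact 95% lower limits 63.8 and 63), with edgeR adjusted p-values of 0.000165 and 0.0002. DESeq2 gave an adjusted p of 0.0798 for Evx2. The posterior Hox genes beside them did not share these levels, with 0 or 1 counts of Hoxa13 and Hoxd12 and 5 of Hoxd13 over the E15.5 group. Of the 13 listed flanking genes found in the table, 12 were tested, and 3 were higher and 3 lower at P1 than at E15.5, near the 46.3% of all genes that differed, with a median log2 change of -0.15 against 0.03 over all genes tested. Ttll6, a tubulin-modifying enzyme beside cluster B, was among the higher, with 1 count at E15.5 and 233 at P1 (log2 change 7.39 ± 0.78, edgeR adjusted p = 4.43e-06). In MB against P7, Mtx2, a mitochondrial import gene beside cluster D, was lower by -4.42 ± 0.32 (edgeR adjusted p = 1.16e-07), and Skap1, a T cell adaptor gene beside cluster B, was higher by 4.50 ± 0.83 (adjusted p = 0.000599). Mtx2 measured 1.64 to 3.27 CPM in MB and 39.8 to 59.4 CPM at P7. In that comparison 3 of the 12 were higher and 3 lower, where 34.5% of all genes differed.

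**Figure D4:**
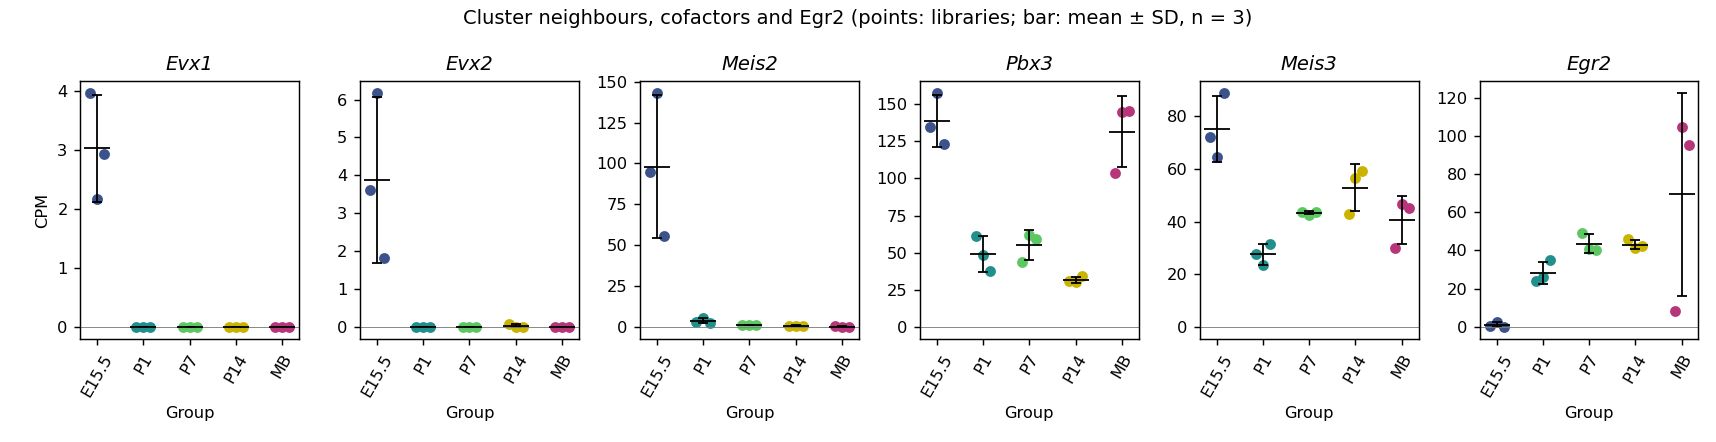
CPM (vertical axes, linear, 1 scale per panel) by group (horizontal axis) of Evx1, Evx2, the cofactors Meis2, Pbx3 and Meis3, and the regulator Egr2, with points for libraries and the mean and SD of 3. Evx1, Evx2 and Meis2 are high at E15.5 only, Pbx3 is high at E15.5 and in MB, and Egr2 is lowest at E15.5.

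Of 13 listed upstream regulators of Hox expression, 7 were tested. At P1 against E15.5, 4 were higher, none was lower and 3 did not pass, where 25.4% of all genes were higher and 20.9% lower, with a median log2 change of 1.00 against 0.03 over all genes tested. Egr2 (Krox20), which activates Hoxa2 and Hoxb2 in hindbrain segments, measured 0.523, 2.42 and 0.131 CPM at E15.5 and 23.8, 26.3 and 34.9 CPM at P1, a log2 change of 5.12 ± 0.88 (edgeR adjusted p = 0.000291). The E15.5 libraries were all below the P1 libraries. Aldh1a2, which makes retinoic acid, changed by 3.57 ± 0.36 (adjusted p = 3.12e-06 with edgeR), and Cyp26b1, which degrades it, by 2.26 ± 0.36 (0.000142). The Cdx genes, which drive posterior Hox genes in the trunk, had too few counts to test. In MB against P7, Cyp26b1 was lower (-4.96 ± 0.42, edgeR adjusted p = 5e-07), and in all 1 of the 7 was higher and 3 were lower, where 13.7% and 20.7% of all genes were.

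Polycomb group proteins keep Hox clusters silent and trithorax proteins keep them active, and all 17 listed genes of these groups were tested. At P1 against E15.5, 1 was higher, 4 were lower and 12 did not pass, a smaller share than the 46.3% of all genes that differed, with a median log2 change of -0.26 against 0.03. Ezh2, the methyltransferase that places the Polycomb mark, measured 209.7, 220.2 and 244.3 CPM at E15.5, 188.6, 171.1 and 127.4 at P1, and 159.0, 253.6 and 203.7 at P7. It measured 104.5, 97.9 and 101.8 CPM at P14, and 342.8, 376.6 and 330.2 CPM in MB, where every library was above every precursor library. Its change from E15.5 to P1 was -0.47 ± 0.18 (edgeR adjusted p = 0.0491), and this call was lost, at adjusted p-values of 0.065 to 0.197, on leaving out any E15.5 library or P1 replicate 2 or 3. From P7 to P14 it fell by 1.02 on the log2 scale (SE 0.19, edgeR adjusted p = 0.00873, and 0.0536 without P14 replicate 2). In MB it was higher than at P7 by 0.77 ± 0.19 (edgeR adjusted p = 0.00441) and than at P14 by 1.79 ± 0.19 (adjusted p = 2.77e-06). With the 6 libraries of the first set alone, where MB has 1 library, the former had an adjusted p of 0.109.

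The trithorax gene Kmt2a, which maintains Hox expression, differed by -0.17 ± 0.38 at P1 against E15.5 (edgeR adjusted p = 0.746) and by 0.16 ± 0.38 in MB against P7 (adjusted p = 0.781). Kdm6b, which removes the Polycomb mark, differed by -0.20 ± 0.48 (edgeR adjusted p = 0.765) and -0.47 ± 0.48 (adjusted p = 0.491). Within the 6 libraries of the first set, where MB has 1 library, the latter difference was larger, at -2.07. That library, MB replicate 1, held 51.3 CPM of Kdm6b, against 210.2 and 220.2 CPM in MB replicates 2 and 3. Men1, a partner of Kmt2a, was lower at P1 than at E15.5 by -1.04 ± 0.20 (edgeR adjusted p = 0.000793). In MB against P7, 3 of the 17 were higher, none was lower and 14 did not pass, a smaller share than the 34.5% of all genes, with a median of 0.21 against 0.02 over all genes tested. Besides Ezh2, the Polycomb subunit Cbx2 was higher there (0.75 ± 0.19, edgeR adjusted p = 0.00641, and 0.225 within the 6 libraries).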

How the data were processed

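The Hox members and the gene lists were chosen with earlier results of these data known. The authors deposited raw read counts for each library in 3 tables, per gene, per transcription start site model and per transcript. Per the submitters' processing notes, Trimmomatic, TopHat, StringTie, HTSeq and the mm9 build were used, with no versions given, and the strand setting is not given in the sources used here. Gene counts were analysed as deposited. Lines that name no gene were kept out, and 39.5% to 55.4% of a library's records were counted in genes. Genes were kept by filterByExpr (minimum count 10, minimum total 15) and tested with edgeR 4.0.16 (R 4.3.3, TMM scaling, glmQLFit and glmQLFTest, 1 mean per group over all 15 libraries, 10 residual degrees of freedom), with Benjamini-Hochberg adjustment over all 15259 genes and a threshold of 0.05. Every adjusted p printed comes from this fit or from an alternative named beside it, such as DESeq2 1.42.0. CPM are counts over TMM-scaled library sizes, with no prior. Pooled ratios have exact 95% intervals. Named genes are all listed Hox genes, with values per library for those called or with a mean of at least 1 CPM. Of each list, at most 4 called members per comparison were named, by size of change, with Ezh2, Kmt2a and Kdm6b in any case. Cell type markers came from fixed lists. Tested on simulated data for P1 against E15.5 (15259 genes), the fit recovered 34.3% of 2-fold, 71.6% of 4-fold and 92.4% of 8-fold changes. The changed genes were drawn at random from all genes tested. These rates are therefore not those of the Hox genes, which have few counts. Promoter windows are RefSeq on GRCm38.p6 and were not converted to mm9. No 2 libraries of a group held identical values. Alternatives were RLE scaling, no filter, the other 2 tables, a replicate block, only the groups compared, libraries left out, the sets of libraries named above and DESeq2.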

Additional observations from a re-analysis of the deposited data

How the results depend on the processing

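For the 5 groups together, 5 Hox genes were called, with 8 of 26 under no filter (57.7% of all genes) and 3 from the start site table, which has no model for Hoxb3 and Hoxd3. For P1 against E15.5 (4 called), the start site table gave 1 and DESeq2 2. The 9-library set, with 1 E15.5 library, gave smaller changes for all 5 genes. For P7 against P1 (3 called), the start site table gave 1, DESeq2 5 and the compared groups alone 0, with 1 Hox gene tested. For P14 against P7 DESeq2 gave 1 against 0. For P14 against P1 (2 called), no filter, the start site table and the transcript table each gave 1. The compared groups alone also gave 1, with 1 Hox gene tested. For MB against E15.5 (5 called), no filter gave 8 of 26 (41% of all genes) and the start site table gave 3. The 9-library set, with 1 E15.5 library, again gave smaller changes for all 5 genes. For MB against P7 the 6-library set called 1, Hoxa4, against 0. For MB against P14 (1 called), the 9-library set gave 0. With the compared groups alone no Hox gene passed the filter there, so none was tested. With 1 library left out, Hox calls ranged from 5 to 6 over all groups, 2 to 6 for P1 against E15.5 and 5 to 6 for MB against E15.5. They ranged from 0 to 5 for P7 against P1, where 9 to 888 of all genes were called. For P14 against P1 they ranged from 0 to 2, where 154 to 2714 of all genes were called. For MB against P14 they ranged from 0 to 1, and they were 0 for P14 against P7 and MB against P7. The 5 genes at 1 CPM or more at E15.5 became 2 at 2 CPM, 2 in the start site table and 3 to 5 with 1 library left out, and at P1 the count went from 0 to 1 at 0.5 CPM. Where not stated, the cause was not tested. Replicate numbers did not pair the libraries (correlations of same-numbered libraries from -0.253 to 0.339, 6 of 30 over 0.1). A replicate block gave 2 calls for P1 against E15.5, 1 for P7 against P1, 0 for MB against P14 and 1 for P14 against P1, and left the other counts as they were. Changes that turned direction with a library left out were Kmt2a (-0.62 to 0.23) and Kdm6b (-0.57 to 0.04) at P1 against E15.5, both positive only without E15.5 replicate 2, Hoxb3 at P14 against P1 (-1.41 to 0.10, positive without P1 replicate 2) and Hoxa2 in MB against P7 (-0.34 to 0.86, negative without MB replicate 2, and -0.30 within the 6 libraries). Hoxd3, at 1 or 2 counts per group after P1, ranged with a library left out from -2.55 to 1.80 at P14 against P7 and from -2.52 to 1.80 in MB against P7 (both positive without P7 replicate 3). In MB against P14 it ranged from -1.76 to 1.78 about a difference of -0.01 (positive without P14 replicate 1, and 0.35 and 0.34 without MB replicates 1 and 3). It was 0.01 at P14 against P7 in the transcript table, and in MB against P14 it was 0.02 with the replicate block, 0.37 in the 9-library set and 0.06 with DESeq2. None of these had been called. Depth limits all Hox results after P1, which rest on at most 20 counts of a tested gene per group.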

Other observations

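The midbrain-hindbrain organiser, the signalling centre that keeps the anterior hindbrain free of Hox expression, is marked by Fgf8, Wnt1 and the En and Pax genes. All 10 listed organiser and anterior hindbrain genes were tested. At P1 against E15.5, 5 were lower, none was higher and 5 did not pass, where 20.9% of all genes were lower, with a median log2 change of -1.12 against 0.03 over all genes tested. Pax8 measured 2.14, 0.752 and 2.70 CPM at E15.5 and at most 0.129 CPM in every later library, a log2 change of -4.51 ± 0.59 (edgeR adjusted p = 5.79e-05). Pax5 (-3.90 ± 0.61, edgeR adjusted p = 0.000141), Wnt1 (-2.50 ± 0.61, adjusted p = 0.00462) and En1 (-1.80 ± 0.49, adjusted p = 0.00726) were lower too. Within the 9 libraries that hold E15.5 replicate 2 alone at that age, Wnt1 had an edgeR adjusted p of 0.143. Fgf8 measured 4.34 to 5.25 CPM at E15.5 and 1.09 to 5.32 CPM at P1.

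In MB, 8 of the 10 were lower than at E15.5 and none was higher, where 24.2% of all genes were lower, with a median log2 change of -4.86. Pax2, which in the postnatal cerebellum marks interneuron precursors, measured 87.5 to 139.4 CPM at E15.5, 39.5 to 108.9 CPM at P7 and at most 0.0244 CPM in MB, from 1 count, with an edgeR adjusted p of 3.84e-08 for MB against P7. Among the brainstem neuron markers, Isl1 measured 0, 6.38 and 34.2 CPM in MB replicates 1, 2 and 3, against 0.0585 to 0.248 CPM at P7.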
